A study of Mus musculus with 6 samples.

Results

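Cytochrome c oxidase, complex IV of the respiratory chain, is built partly from subunits that exist as a common form and a tissue-restricted form encoded by separate genes. The 10 genes described here are Cox4i1 and Cox4i2, Ndufa4 and Ndufa4l2, Cox6a1 and Cox6a2, Cox6b1 and Cox6b2, and the restricted forms Cox7a1 and Cox8b. They were chosen by symbol and represented by every probe set annotated to 1 of them alone, which gave 13 of the 45037 probe sets tested and 10 of 18193 genes. Expression was measured on 6 Affymetrix arrays, 3 of carotid body and 3 of adrenal medulla. All samples came from untreated adult mice of the strain labelled C57/BL6, and no genetic change is recorded for either group. Each carotid body array was made from a pool of 18 organs and each adrenal medulla array from a pool of 10, both from 10 mice. The group numbers stand for cohorts of animals, and cohorts 1, 2 and 3 each gave 1 array of either tissue.

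Complex IV passes electrons from cytochrome c to oxygen, and its nuclear-encoded subunits surround a catalytic core encoded by mitochondrial DNA. Restricted subunit forms are known from heart, skeletal muscle and brown fat (Cox6a2, Cox7a1, Cox8b), from testis (Cox6b2) and from lung and cells that respond to low oxygen (Cox4i2). Ndufa4 was long counted as a complex I subunit and is now placed with complex IV; its relative Ndufa4l2 is a known target of hypoxia-inducible factors. The carotid body measures arterial oxygen through its glomus cells, in which Cox4i2 and Ndufa4l2 are discussed as parts of the sensor, and the adrenal medulla holds the related chromaffin cells.

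The deposited values are log2 intensities, 1 per probe set and array, and 1 unit is a doubling. Array medians were 5.16 to 5.32, and arrays correlated at 0.978 to 0.984 within carotid body, 0.991 to 0.995 within adrenal medulla and 0.938 to 0.951 between tissues. Olfr78, an olfactory receptor that marks glomus cells, was 11.18 to 11.90 in carotid body against 4.96 to 5.89 in adrenal medulla, and Pnmt, the adrenaline-making enzyme of chromaffin cells, was 11.13, 7.65 and 8.08 on carotid body arrays 1, 2 and 3 against 13.17 to 13.84 in adrenal medulla. Star, a steroid synthesis gene of the adrenal cortex, was 13.52 to 13.95 in adrenal medulla, 12.06 in carotid body array 1 and 3.85 and 3.81 in carotid body arrays 2 and 3. All adrenal medulla pools and carotid body pool 1 therefore held RNA of cortex genes, and Pnmt was also highest in that carotid body pool; values without that array are given for the members and their pairs. The 3' minus 5' signal of the Gapdh controls, a measure of RNA or label length, was 0.59 to 1.45 in carotid body against 0.13 to 0.61 in adrenal medulla. Xist, a transcript of the inactive X chromosome, was 8.84 to 10.96 and 4.45 to 5.60, higher in carotid body in each cohort, although a cohort number is said to mark the same animals. The labels give no sex, so a difference in sex between the pools and a difference between tissues cannot be told apart, and neither the sex of the animals nor its bearing on the pairing was tested. The part of the Gapdh measure in the results below was not tested. In tissue pools, fewer cells of a type and less RNA per cell cannot be told apart.

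Carotid body had more RNA of 3 restricted isoforms, Cox4i2 (3.26-fold), Ndufa4l2 (2.81-fold) and Cox6b2 (2.64-fold), while none of their common partners was called in either direction. Calls needed a difference of at least 2-fold and a limma p under 0.05 after Benjamini-Hochberg adjustment across the whole table. By that rule 3 of 10 members were higher in carotid body, where 5.91% of all genes were, and 0 were lower, where 6.08% of all genes were. By adjusted p alone 4 members were higher, Cox8b at 1.44-fold being the fourth (10.9% of all genes), and 0 were lower (16.5% of all genes). At an unadjusted limma p under 0.05, 4 members were higher (14.9% of all genes) and 1, Cox7a1, was lower (24.2% of all genes). Without carotid body array 1 the 3 called members differed by 1.76, 1.60 and 1.53 (adjusted p 0.0008314, 0.01877 and 0.006646). The 2 tissues did not overlap for 4 members, all higher in carotid body (17.8% of all genes); no member was lower without overlap (26.1% of all genes).

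**Figure D1:**
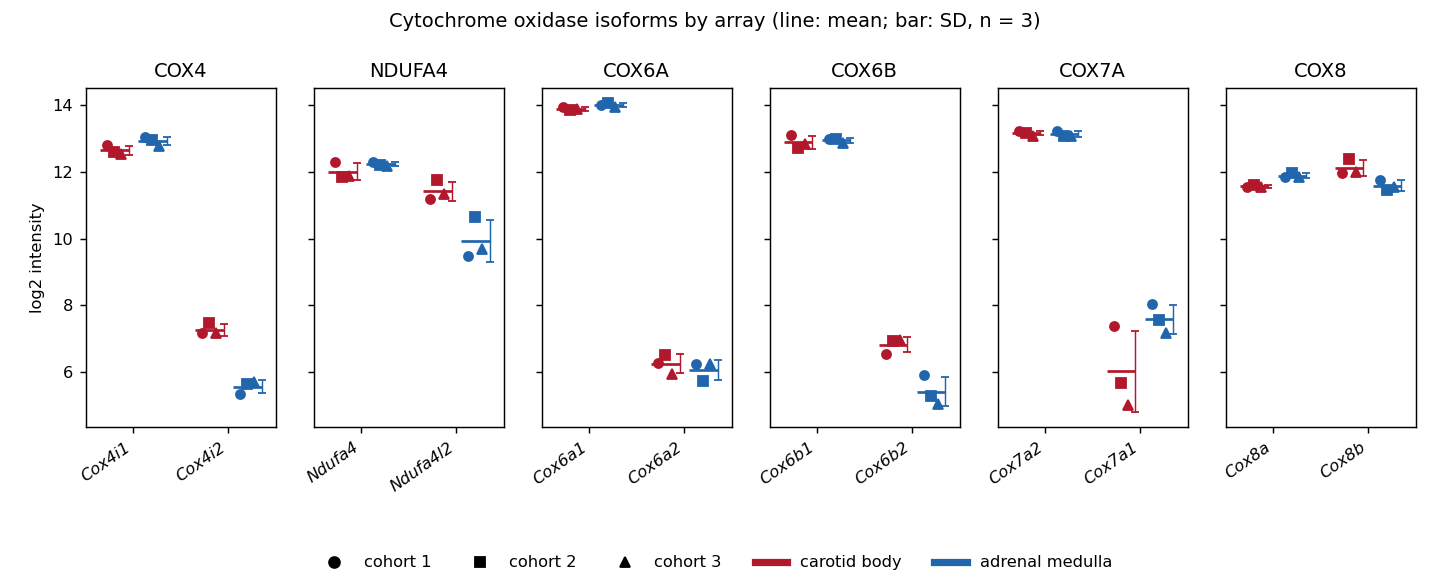
Log2 intensity of the isoforms of 6 complex IV subunits on 3 carotid body arrays (red) and 3 adrenal medulla arrays (blue); symbols mark the cohort, lines the mean and bars the SD (n = 3). Cox4i2, Ndufa4l2, Cox6b2 and Cox8b lie higher on every carotid body array than on any adrenal medulla array, and Cox7a1 spans 5.03 to 7.37 within carotid body.

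Cox4i2 encodes the alternative form of subunit 4, the subunit through which ATP regulates the enzyme when its common form, Cox4i1, is present. Cox4i2 measured 7.17, 7.47 and 7.17 on carotid body arrays 1, 2 and 3 and 5.34, 5.64 and 5.71 on adrenal medulla arrays 1, 2 and 3. Every carotid body array was above every adrenal medulla array, and the arrays of each tissue lay close together. The adrenal medulla values lie just above the array medians of 5.16 to 5.18; the table gives no detection calls, so whether they stand above background is not known, and the fold may be understated. The means were 7.27 ± 0.18 and 5.56 ± 0.20 (SD, n = 3), a difference of 1.71 ± 0.15 (log2, SE; adjusted p = 0.0002993). Leaving out any 1 array gave 1.59 to 1.78, and the 3 cohorts gave 1.83, 1.83 and 1.46.

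Cox4i1, the common partner, measured 12.79, 12.59 and 12.54 in carotid body against 13.03, 12.94 and 12.78 in adrenal medulla. The tissues overlapped by a narrow margin, since carotid body array 1 was just above adrenal medulla array 3. The difference was -0.27 ± 0.13 (SE), with a 95% interval of -0.57 to 0.02 and an adjusted p of 0.1707, so a 2-fold change of Cox4i1 lies outside the interval and a small fall does not.

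Levels of different probe sets cannot be ranked against each other, since probes differ in brightness, but the change of their difference between tissues can be measured. On each array the common isoform was subtracted from the restricted one, and the result was compared between tissues with an exact two-sided permutation test over arrays. With 3 arrays against 3 the smallest p this test can give is 0.1. The balance of the COX4 pair was -5.62, -5.12 and -5.37 in carotid body against -7.69, -7.29 and -7.07 in adrenal medulla. It therefore lay 1.98 log2 units further toward Cox4i2 in carotid body, a 3.94-fold shift, with no overlap (exact p = 0.1; 0.15 adjusted over the 6 pairs compared).

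**Figure D2:**
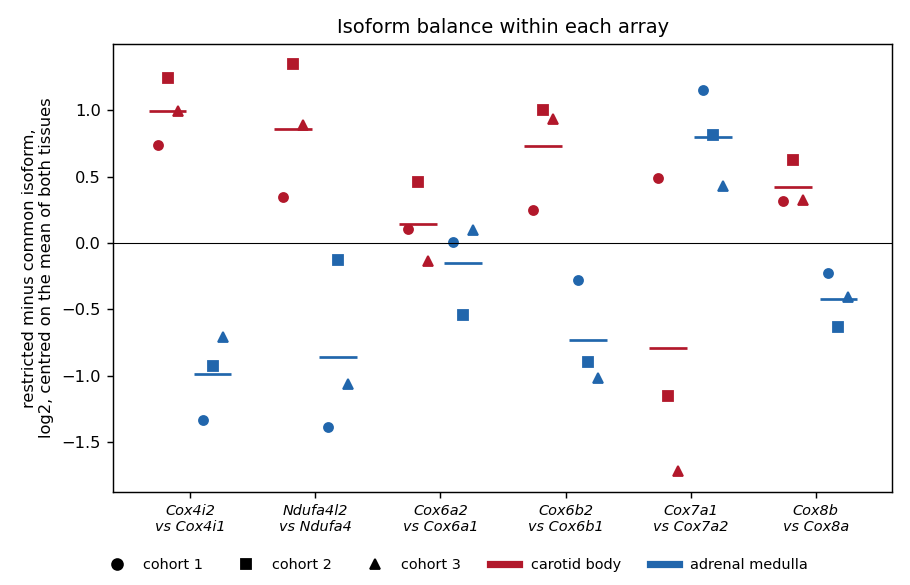
Restricted minus common isoform on each array (log2), centred for each pair on the mean of both tissues; red is carotid body, blue adrenal medulla, symbols mark cohorts and lines the means (n = 3). The pairs of Cox4i2, Ndufa4l2, Cox6b2 and Cox8b do not overlap between tissues, with shifts of 1.98, 1.71, 1.46 and 0.84, and that of Cox7a1 runs the other way at -1.59 with overlap.

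Ndufa4l2 showed the same direction with a wider spread. Its values were 11.19, 11.74 and 11.32 in carotid body against 9.47, 10.64 and 9.69 in adrenal medulla. Adrenal medulla array 2 stood above the other 2 arrays of its tissue and still below every carotid body array. The difference was 1.49 ± 0.30 (SE; adjusted p = 0.011; n = 3). Leaving out single arrays gave 1.26 to 1.84 (adjusted p 0.003139 to 0.04739); without cohort 3 it was 1.42 with an adjusted p of 0.06254, and the call was lost.

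Ndufa4, the common partner, measured 12.29, 11.83 and 11.88 in carotid body against 12.29, 12.19 and 12.18 in adrenal medulla. Carotid body array 1 equalled adrenal medulla array 1 and lay above the other 2 of that tissue, while carotid body arrays 2 and 3 were below all of them. The difference was -0.22 ± 0.15 (SE; 95% interval -0.57 to 0.12; adjusted p = 0.3362). The balance of the pair moved by 1.71 toward Ndufa4l2 in carotid body, 3.28-fold, with within-cohort shifts of 1.73, 1.47 and 1.94 (exact p = 0.1; 0.15 adjusted over pairs).

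Cox6b2 encodes the testis form of subunit 6b, which lies on the intermembrane side of the enzyme near the cytochrome c site. It measured 6.56, 6.93 and 6.97 in carotid body against 5.91, 5.30 and 5.05 in adrenal medulla. The adrenal medulla values are again near the array medians, with the same limit on the fold. The tissues did not overlap, and the difference was smallest in cohort 1, at 0.65, against 1.64 and 1.92 in cohorts 2 and 3. Over all arrays the difference was 1.40 ± 0.23 (SE; adjusted p = 0.004702; n = 3). It was 1.22 to 1.65 without single arrays; without cohort 2 it was 1.28 with an adjusted p of 0.09788, and the call was lost.

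The common form Cox6b1 was read by 2 probe sets, both with overlapping tissues. The brighter measured 13.09, 12.71 and 12.82 in carotid body against 12.98, 12.98 and 12.85 in adrenal medulla. Its difference was -0.06 ± 0.13 (SE; 95% interval -0.37 to 0.25; adjusted p = 0.8039), and the other probe set gave -0.06. The balance of the pair shifted by 1.46 toward Cox6b2 in carotid body, 2.75-fold (exact p = 0.1; 0.15 adjusted over pairs).

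The stretches before the annotated starts of these genes were searched because the common and restricted forms of a subunit are transcribed from separate promoters. Both windows of a pair were found for the subunits 6b, 7a and 8, and those of 6b and 8 are printed side by side. RefSeq promoter entries on GRCm38.p6 matched 6 of the 10 members: Ndufa4, Cox6a1, Cox6b1, Cox6b2, Cox7a1 and Cox8b. Entries for the common partners Cox7a2 and Cox8a were also found. No entry was matched for Cox4i1, Cox4i2, Ndufa4l2 and Cox6a2, and the windows of Ndufa4, Cox7a1 and Cox7a2 were searched but are not printed. The 200 bases before each start were searched on both strands. The motifs were CTTCCG, the core read by ETS factors such as the GA-binding protein, and CGCATGCG, the core of the nuclear respiratory factor site. The promoter elements CCAAT (the CCAAT box) and TATAAA (the TATA box) were added, as were the hypoxia response element cores with the letters ACGTG or, in the other common form, GCGTG. Capitals mark every match on either strand, 5′ to 3′ on the gene's own strand, for Cox6b1 (chr7:30626115-30626314, minus strand), Cox6b2 (chr7:4753095-4753294, minus strand), Cox8a (chr19:7217617-7217816, minus strand) and Cox8b (chr7:140900447-140900646, minus strand), and for Cox6a1 (chr5:115348959-115349158, minus strand), the window with CGCATGCG.
Cox6b1: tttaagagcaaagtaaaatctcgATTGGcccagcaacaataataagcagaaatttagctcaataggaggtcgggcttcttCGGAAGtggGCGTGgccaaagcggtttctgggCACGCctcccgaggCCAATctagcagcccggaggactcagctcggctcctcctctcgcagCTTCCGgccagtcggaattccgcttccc
Cox6b2: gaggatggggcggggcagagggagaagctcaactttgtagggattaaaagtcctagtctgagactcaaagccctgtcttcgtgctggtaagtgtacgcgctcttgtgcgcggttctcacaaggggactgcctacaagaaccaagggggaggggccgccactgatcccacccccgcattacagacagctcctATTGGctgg
Cox8a: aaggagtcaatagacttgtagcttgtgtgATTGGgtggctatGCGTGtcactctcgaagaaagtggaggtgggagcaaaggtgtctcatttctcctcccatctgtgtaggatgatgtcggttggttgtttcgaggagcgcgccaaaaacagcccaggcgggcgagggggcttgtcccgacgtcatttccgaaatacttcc
Cox8b: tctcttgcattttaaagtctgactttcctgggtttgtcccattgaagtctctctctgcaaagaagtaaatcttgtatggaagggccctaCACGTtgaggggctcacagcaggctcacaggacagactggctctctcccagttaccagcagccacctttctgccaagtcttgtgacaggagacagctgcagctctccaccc
Cox6a1: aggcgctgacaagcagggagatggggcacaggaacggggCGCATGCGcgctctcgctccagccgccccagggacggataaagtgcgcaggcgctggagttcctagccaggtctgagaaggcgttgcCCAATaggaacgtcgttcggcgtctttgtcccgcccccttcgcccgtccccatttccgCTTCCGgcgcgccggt
CTTCCG was found 2 times in Cox6b1 and 1 time in Cox6a1, so 2 of the 5 common forms searched held it; Ndufa4, Cox7a2 and Cox8a held it 0 times, as did the restricted forms Cox6b2, Cox7a1 and Cox8b, and 12.1% of all 32851 promoter windows of this length hold it. Cox6a1 alone of the 8 windows held CGCATGCG (1.44% of all windows). CCAAT occurred 2 times in Cox6b1 and Cox7a1, 1 time in Cox6b2, Cox6a1 and Cox8a and 0 times in Cox8b, Ndufa4 and Cox7a2 (29.3% of all windows). Of the hypoxia cores, ACGTG was found 1 time in Cox8b and in none of the other windows (14% of all windows). GCGTG was found 2 times each in Cox6b1 and Cox7a1, 1 time each in Cox7a2 and Cox8a and 0 times in the other 4 (24.7% of all windows), so Cox6b2, the called member here, held neither. TATAAA was in none of the 8 windows (9.96% of all windows). These are matches of letters in 1 window and describe no binding.

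Cox6a2 is the heart and skeletal muscle form of subunit 6a, a site of allosteric control by adenine nucleotides. Its brighter probe set measured 6.28, 6.52 and 5.96 in carotid body against 6.24, 5.73 and 6.25 in adrenal medulla. The arrays of the 2 tissues were interleaved. The difference was 0.18 ± 0.20 (SE; 95% interval -0.28 to 0.64; adjusted p = 0.5839), and the dimmer probe set, at 3.54 to 3.90 on all arrays, gave 0.17. Cox6a1, the common form, measured 13.94, 13.83 and 13.86 in carotid body against 14.00, 14.04 and 13.92 in adrenal medulla. Its difference was -0.11 ± 0.11 (SE; 95% interval -0.36 to 0.14; adjusted p = 0.5347), and its other probe set gave -0.07. The COX6A balance differed by 0.29 with overlap (exact p = 0.4; 0.4 adjusted over pairs), and its within-cohort shifts of 0.10, 1.00 and -0.24 had no common direction.

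Cox8b is the rodent heart, skeletal muscle and brown fat form of the small subunit 8. It measured 11.97, 12.37 and 11.99 in carotid body against 11.75, 11.45 and 11.55 in adrenal medulla. Every carotid body array was above every adrenal medulla array, by a small margin in cohort 1. The difference of 0.52 ± 0.15 (SE; 95% interval 0.17 to 0.88) had an adjusted p of 0.04265. Its adjusted p was 0.06782 with the cohort as a block, 0.08542 with arrays centred on their medians, up to 0.1557 without single arrays and 0.3025 without cohort 2. The common form Cox8a, which is not a member, measured 11.53, 11.61 and 11.54 in carotid body against 11.85, 11.97 and 11.83 in adrenal medulla, a difference of -0.32 ± 0.11 (SE; adjusted p = 0.06557). The 2 isoforms thus gave differences of opposite sign, and their balance moved by 0.84 toward Cox8b in carotid body, 1.80-fold and without overlap (exact p = 0.1; 0.15 adjusted over pairs). The dim probe set of Cox8a, at 4.24 to 4.64, gave 0.25 in the other direction.

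Cox7a1, the muscle and brown fat form of subunit 7a, had the widest spread of the 10 members in carotid body. It measured 7.37, 5.69 and 5.03 in carotid body against 8.04, 7.55 and 7.17 in adrenal medulla. Carotid body array 1 lay between the adrenal medulla arrays, and the other 2 carotid body arrays were well below them. Those 2 values lie near the medians of their arrays, 5.30 and 5.25, so whether they stand above background is not known. The difference was -1.56 ± 0.55 (SE; 95% interval -2.83 to -0.28; adjusted p = 0.08088), so Cox7a1 was not called. With the cohort as a block its adjusted p was 0.01229 and the number of members called lower in carotid body was 1; without carotid body array 1 the difference was -2.23 (adjusted p = 0.002886), without cohort 1 it was -2.00 (adjusted p = 0.0053), and without carotid body array 3 it was -1.06 (adjusted p = 0.1532). In each cohort Cox7a1 was lower in carotid body, by -0.66, -1.86 and -2.14. The common form Cox7a2, not a member, differed by 0.03 ± 0.11 (SE; 95% interval -0.22 to 0.28; adjusted p = 0.8838), or by -0.09 with arrays centred on their medians. The COX7A balance moved by -1.59, away from Cox7a1 in carotid body (exact p = 0.2; 0.24 adjusted over pairs). Without carotid body array 1 it was -2.23, and the balances of COX4, NDUFA4, COX6B, COX8 and COX6A were 2.11, 1.97, 1.70, 0.90 and 0.31, each in the direction found with all arrays.

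**Figure D3:**
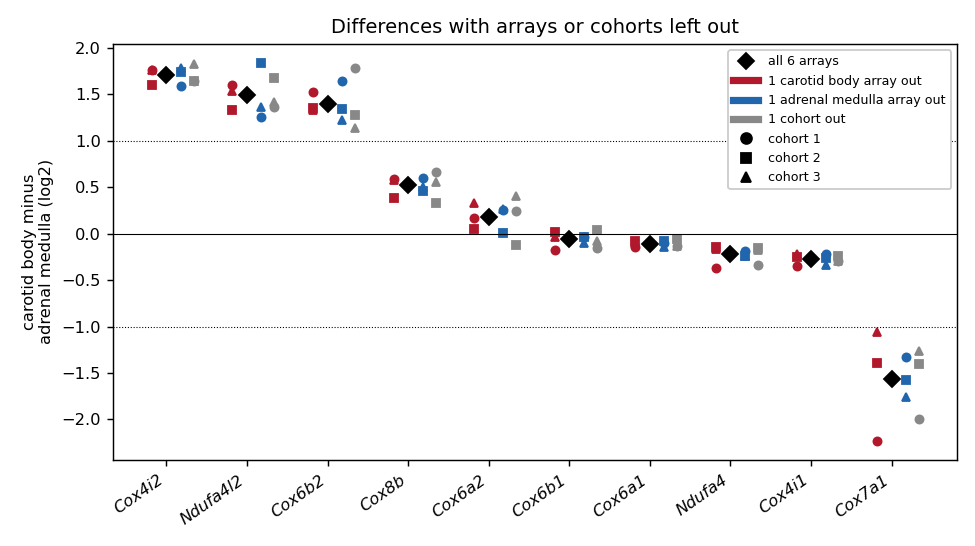
Difference of each member (carotid body minus adrenal medulla, log2) with all 6 arrays (black), without 1 carotid body array (red), without 1 adrenal medulla array (blue) or without 1 cohort (grey); symbols give the number left out and dotted lines mark 2-fold. Cox4i2 stays between 1.59 and 1.83, while Cox7a1 ranges from -2.23 to -1.06.

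Cox7a1 was lower in carotid body in each cohort. The summed markers of adrenal cortex and of chromaffin cells were too, so the direction is not particular to cortex. The summed fat markers were higher in carotid body in each cohort, but their median difference was 0.03 and 5 of the 10 measured were lower. The 11 measured adrenal cortex markers, of which 0 were called higher and 10 lower in carotid body (11 with carotid body array 1 left out, 4 or 5 with any adrenal medulla array or carotid body array 2 left out, and 1 and 3 without cohorts 2 and 3), had a summed level (log2 of the summed intensities) of 14.93, 10.96 and 10.59 on carotid body arrays 1, 2 and 3 and 16.18 to 16.62 in adrenal medulla. The 10 measured fat markers, 1 called in each direction (Dio2 at 1.63 and Lipe at -1.18; 0.51 and -0.63, not called, as the mean of their probe sets), summed to 13.65, 12.97 and 12.06 in carotid body against 13.34, 12.08 and 11.56 in adrenal medulla. Within each tissue the fat sums ranked the arrays as Cox7a1 did. The cortex sums and the skeletal and cardiac muscle sums gave the same order, so it is not particular to fat. Adipoq, a fat cell hormone, was 10.02, 8.84 and 7.40 in carotid body against 9.24, 7.41 and 4.06 in adrenal medulla, with overlap. Fabp4, of the same list, was 11.99, 11.34 and 10.74 in carotid body against 12.05, 11.47 and 11.33 in adrenal medulla. Fabp4 was thus lower in carotid body in each cohort. The brown fat gene Ucp1 was 3.80 to 4.64 on all arrays. The part of cortex and fat RNA in the Cox7a1 values was not tested. Skeletal and cardiac muscle markers, which bear on the muscle forms Cox6a2, Cox7a1 and Cox8b, had 0 of 18 genes called higher in carotid body and 1 lower, Myl1 at -1.83 (3 and 3 at an unadjusted limma p under 0.05, where 14.9% and 24.2% of all genes are). Their summed level was 8.94 to 9.13 in carotid body against 9.47 to 9.54 in adrenal medulla, but their median difference was 0.06. The sum is weighted to its brightest genes, of which Myl1 averaged 5.85 and 7.68. By adjusted p alone 2 of the 18 were higher, Tnnt3 at 0.76 and Actc1 at 0.62, where 10.9% of all genes were. In the same count 3 were lower, Myl1, Pygm at -0.99 and Actn3 at -0.58, where 16.5% were. By the call rule 5.91% of all genes were higher and 6.08% lower. Ckm, the muscle creatine kinase, was 4.64 to 4.99 and the skeletal actin Acta1 5.41 to 5.59 over all arrays.

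Markers of vessel wall cells, fibroblasts and glia were mostly higher in carotid body, as Cox4i2, Ndufa4l2 and Cox6b2 were. Ndufa4l2 and Higd1b are themselves widely used as markers of pericytes, the contractile cells around capillaries. The smooth muscle and pericyte list had 13 of its 16 genes called higher in carotid body and 0 lower, with a median difference of 1.94. It was led by Myh11 at 3.85 and Acta2 at 3.84, which were 2.38 and 2.01, still called, as the mean of their probe sets. The summed level of the list was 15.43 to 15.62 in carotid body against 12.95 to 13.48 in adrenal medulla. The 16 differences ran from -0.47 for Des, the muscle intermediate filament desmin, to 3.85 for Myh11. Des, Vtn (0.23) and Mcam (0.50) were the 3 not called. By the call rule, 5.91% of all genes were higher in carotid body and 6.08% lower. Fibroblast and matrix markers were higher for 12 of 12 genes (median 3.06; Pcolce2 at 7.11, Sfrp2 at 6.24) and glial markers for 5 of 6 (median 2.13; Mbp at 3.39, S100b at 2.50). Glomus cell markers split, with 3 of 7 called higher (Olfr78 at 6.15, Rgs4 at 2.87, Epas1 at 1.69) and 3 lower (Chga at -2.08, Th at -1.81, Kcnk3 at -1.64), and a median of -0.67, and 6 of 7 chromaffin markers were lower (Pnmt at -4.62, Dbh at -3.41). Which cells carry the isoform RNA was not tested, nor was the part of any of these cell types in these differences.

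**Figure D4:**
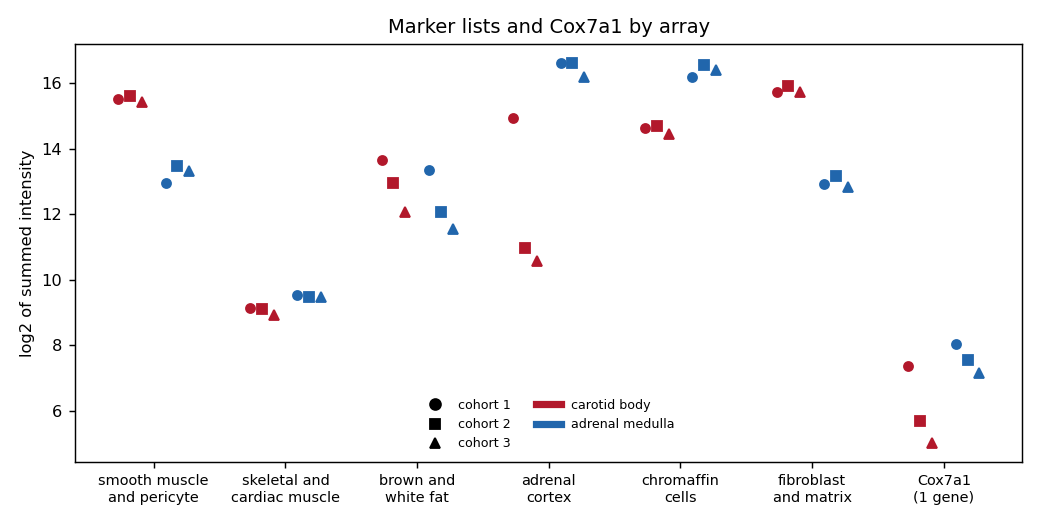
Log2 of the summed intensity of 6 marker lists, and the log2 intensity of Cox7a1, on each array; red is carotid body, blue adrenal medulla and symbols mark cohorts. Smooth muscle and pericyte markers lie at 15.43 to 15.62 in carotid body against 12.95 to 13.48, and the cortex markers of carotid body array 1, at 14.93, lie near the adrenal medulla arrays.

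The genes with the most similar profile were found as the smallest root mean square distance between log2 values over the 6 arrays, each gene centred on its own mean, among 9096 genes at or above the median level. For Cox4i2 they were Perp, a desmosome-related membrane protein (distance 0.09), the growth factor Tgfb2 (0.10), the binding protein gene Rgs7bp (0.10), the calcium-binding protein gene S100a6 (0.11) and the calcineurin regulator Rcan2 (0.11). For Ndufa4l2 the distances were larger, 0.23 to 0.25, to Adamts1, Ltbp4, Crip2, Abcc9 and Syndig1. For Cox6b2 the nearest were Clic5 (0.07), Wfdc1 (0.08), Tbx2 (0.09), Uaca (0.10) and Cgnl1 (0.11). All 15 are profiles of 6 values with a step between tissues.

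Of the 9 measured subunit genes that are not members, 0 were called with limma, with a median difference of -0.09, against -0.04 over all genes. By adjusted p alone 0 of these 9 passed, and at an unadjusted p under 0.05 there was 1 higher (Cox8c) and 2 lower (Cox7c and Cox8a), where 14.9% and 24.2% of all genes are. Cox7c came nearest to a call, at -1.05 ± 0.33 (SE; adjusted p = 0.05644) from a dim probe set at 4.52 to 6.46, and it was called lower in 6 of 16 settings, the block among them (adjusted p = 0.01065). Over all 19 measured subunit genes, members included, 3 were called higher and 0 lower, against 5.91% and 6.08% of all genes. At an unadjusted limma p under 0.05, 5 were higher and 3 lower, against 14.9% and 24.2% of all genes.

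**Figure D5:**
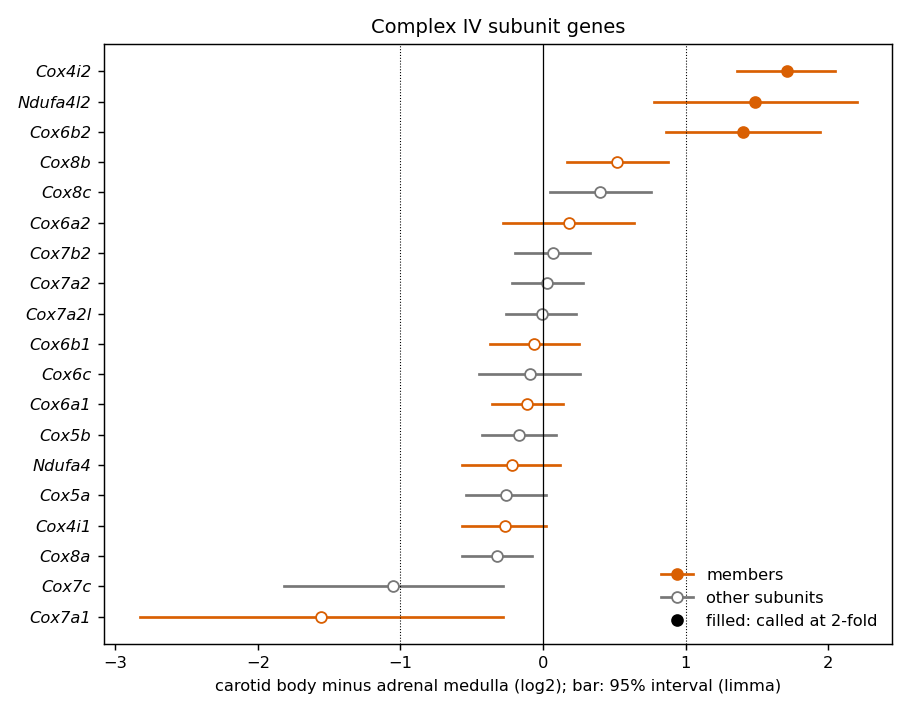
Difference of each measured complex IV subunit gene (carotid body minus adrenal medulla, log2) with its 95% interval from limma (n = 3 a tissue); orange marks members, grey other subunits, filled points those called and dotted lines 2-fold. Cox4i2, Ndufa4l2 and Cox6b2 lie at 1.71, 1.49 and 1.40, Cox8b at 0.52 and Cox7a1 at -1.56, and the 9 subunit genes that are not members lie between -1.05 and 0.40.

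Assembly factors insert copper, haem and subunits into the enzyme. Of 27 measured assembly and Higd genes, 1 was called higher in carotid body and 4 lower, against 5.91% and 6.08% of all genes. Their median difference was -0.37. By adjusted p alone 1 was higher and 9 lower, against 10.9% and 16.5% of all genes. The higher one was Higd1b, of a family of hypoxia-induced mitochondrial proteins, at 1.66 ± 0.18 (SE; adjusted p = 0.0007027), from 4.45 to 4.84 in adrenal medulla to 6.01 to 6.52 in carotid body. The lower ones, named after their values were seen, were Lrpprc, which stabilises mitochondrial messenger RNA (-1.33 ± 0.14; adjusted p = 0.0006805), Higd1a (-1.26), Coa8 (-1.04) and Cmc2 (-1.03). Lrpprc was called in all 16 settings, Higd1a in 14, Coa8 in 10 and Cmc2 in 7. The direction of Coa8 is not settled: its brightest probe set gave -1.04, a dimmer one 1.39 (adjusted p = 0.000761) and the third -0.08, and their mean gave 0.09 (adjusted p = 0.7109). The 2 Higd1 paralogues thus differed in opposite directions. Without cohort 2 the number lower was 1, and it was 2 when carotid body array 2, carotid body array 3 or adrenal medulla array 2 was left out.

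Lists of hypoxia and Cox4i2 regulator genes and of mitochondrial biogenesis genes were also measured. Whether any of them acts on the isoforms in these tissues was not tested. The hypoxia-inducible factor gene Epas1 was 13.53, 13.98 and 14.00 in carotid body against 12.03, 12.33 and 12.07 in adrenal medulla, a difference of 1.69 ± 0.16 (SE; adjusted p = 0.000464), close to that of Cox4i2. Its paralogue Hif1a differed by 0.15 ± 0.14 (SE; adjusted p = 0.5189). Lonp1, a mitochondrial protease known to degrade the Cox4i1 protein at low oxygen, was 8.23, 8.09 and 8.28 in carotid body against 10.86, 10.72 and 10.38 in adrenal medulla. Its difference of -2.45 ± 0.15 (SE; adjusted p = 6.759e-05) exceeded that of any member in size. Of the 11 measured hypoxia and Cox4i2 regulator genes, 1 was called in each direction, against 5.91% of all genes higher and 6.08% lower. Rbpj and Cxxc5, both reported to act at the Cox4i2 promoter, differed by 0.41 (adjusted p = 0.05266) and -0.04 (adjusted p = 0.873). Among 14 genes of mitochondrial biogenesis, 1 was called in each direction: the coactivator Ppargc1a at 2.32 ± 0.21 (SE; adjusted p = 0.0003575) and the nuclear receptor Esrrg at -1.62 ± 0.18 (SE; adjusted p = 0.0008331), which was -0.47 and not called as the mean of its probe sets. Without carotid body array 3 or without cohort 3, 2 of these 14 genes were called higher. The shares of all genes called with all arrays are the same 5.91% and 6.08%. As with the isoforms, vessel wall, fibroblast, glial and cortex markers moved with the tissues here, and their part was not tested.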

How the data were processed

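The deposited table gives a log2 intensity for each probe set on each array. Per the submitters' processing notes, the authors made these log2 values in Affymetrix Expression Console; how it summarised and normalized is not given in the sources used here, nor is its version. The log2 scale was read from the values, 2.70 to 14.97. Per the labels' protocols, RNA was labelled by 3' in vitro transcription. The table has no detection calls, and differences near its floor are compressed. Precision is limited by the number of arrays.

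From these, 64 control probe sets were left out. Genes were named from platform annotation for the 34958 probe sets with 1 symbol (932 had several); the RefSeq table of GRCm38.p6 held the gene ID of 34754. A gene was represented by its brightest probe set. Tissues were compared with lmFit and eBayes of limma 3.58.1 (R 4.3.3; no block, two-sided), with 95% intervals, after a test on simulated data; pair balances were compared with exact permutation tests in scipy 1.17.1. Alternatives were the cohort as a replicate block, quantile normalization, median centring, an intensity trend with robust variances, only the brighter probe sets, the mean of a gene's probe sets, and leaving out arrays and cohorts; a pseudocount was not needed on log2 values. The cohorts pair the arrays, by the series' statement on animals, although Xist differed between tissues in each cohort. Deviations from tissue means correlated at 0.22, 0.08 and 0.16 within cohorts and at -0.214 to 0.101 between tissues of unlike cohorts. The members and lists were chosen with earlier results of these data known. Named genes are all members, their common partners, Epas1, Hif1a, the nearest profiles, and in each list those called (the 2 largest differences where more than 4 were); others, such as Rbpj, Adipoq and Ckm, were chosen after their values were seen. The p-values of the main fit rest on the spread between the pools of each tissue, which came from different cohorts. That fit did not use the pairing by cohort.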

Additional observations from a re-analysis of the deposited data

How the results depend on the processing

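The number of members called higher in carotid body was 3 under every alternative run except without cohort 2 or 3, when it was 2; Cox4i2 was called in all 16 settings, Ndufa4l2 and Cox6b2 in 15. The number of members called lower, 0, was 1 with the replicate block, without carotid body array 1 and without cohort 1 (Cox7a1 each time, -1.56, -2.23 and -2.00), so without 1 array or cohort it ranged from 0 to 1. The number of complex IV subunits called lower, 0, was 2 with the block and 1 with median centring, without the dimmer probe sets and with robust variances and a trend; without 1 array or cohort it was 0 to 1. Assembly genes called lower, 4, numbered 2 after quantile normalization and with the mean of probe sets, and 1 to 5 without 1 array or cohort. Among the assembly genes Coa8 changed from -1.04 to 0.09 with the mean of probe sets, since its probe sets disagree. Differences of members and partners that changed sign were small: with arrays or cohorts left out, Cox6a2 ranged from -0.12 to 0.41, Cox6b1 from -0.17 to 0.04 (0.02 without carotid body array 2), Cox7a2 from -0.0015 to 0.08 and the COX6A balance from -0.07 to 0.55; median centring gave -0.09 for Cox7a2. The causes were not tested. Median centring lowered every difference by 0.11. The block changed no other call of a member. For the pair balances the block is a sign-flip test of 3 cohorts, whose smallest p is 0.25, and 5 of the 6 pairs gave that value. Low signal limits Cox7c, the second probe set of Cox6a2, Cox4i2 and Cox6b2 in adrenal medulla, and Cox7a1 on carotid body arrays 2 and 3.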
